A study of Mus musculus with 32 samples.

Results

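The insulin receptor signalling genes described here are 9 genes on the path from the receptors at the cell surface to the FOXO transcription factors, namely Insr, Igf1r, Irs1, Irs2, Pik3r1, Akt1, Akt2, Foxo1 and Foxo3. They were chosen by name, as the rows of the gene count table whose Ensembl identifier carries one of these symbols, and the rule itself uses no measured value, although earlier results of these data were known when it was set. All 9 were found among the 50686 genes of the table, and all 9 were among the 15505 genes that passed the filter on low counts. RNA was sequenced from the interscapular depot of brown adipose tissue (iBAT), a fat that burns fuel for heat, of untreated male C57BL/6J mice aged 10 weeks, fed chow without restriction and housed in mild cold. Time is Zeitgeber time (ZT), in hours from lights on, under 12 h of light and 12 h of dark. The 8 groups were time points every 3 h from ZT0 to ZT21, each of 4 mice with 1 library per mouse. Lane 2 held ZT0 to ZT6, lane 3 held ZT9 to ZT15, and lane 4 held the remaining pair of time points, so that lane and time of day cannot be told apart between lanes.

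Insulin binds the insulin receptor (Insr), and IGF1 and IGF2 bind the closely related IGF1 receptor (Igf1r). Both are tyrosine kinases that phosphorylate the adaptor proteins IRS1 and IRS2, which recruit phosphoinositide 3-kinase through its p85 regulatory subunit (Pik3r1). The lipid this kinase makes brings AKT1 and AKT2 to the membrane, and active AKT phosphorylates FOXO1 and FOXO3, which then leave the nucleus. In fasting liver, nuclear FOXO raises transcription of Irs2 and of Pck1. In brown adipose tissue insulin drives glucose uptake and fat synthesis. The measurements below are mRNA levels, and neither insulin nor the phosphorylation of any of these proteins was measured in these libraries.

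Library totals lay between 16300770 and 18254659 counts. Counts of the 9 genes ran from 119 (Irs2, lowest library) to 9373 (Pik3r1, highest library), so every gene was counted in every library. The summed level of 8 brown adipocyte markers was 3997 to 7747 CPM (the count of a gene relative to its library's TMM-scaled total) in the 32 libraries. The summed level of 11 skeletal muscle markers ran from 2.51 to 7556 CPM with a median of 520, and none of the 11 differed between time points in the edgeR test. Muscle markers thus differed widely among mice of the same time point. Of 4 endothelial markers 3 differed between time points, and their sum was lowest at ZT12 (597 ± 25.5 CPM) and highest at ZT3 (808 ± 37.4 CPM; SD, n = 4). Of 4 white fat markers 2 were tested and 1 differed, and their sum was lowest at ZT6 (27.0 ± 6.08 CPM) and highest at ZT15 (203 ± 57.8 CPM). In the remaining lists, 1 of 8 brown adipocyte, 1 of 4 macrophage, 1 of 5 tested lymphoid and 0 of 5 blood markers differed. The part of these cell types in the levels below was not tested.

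The upstream sequences of both adaptor genes are shown because both hold an E-box beside an insulin response element core, and that of Akt1 because it holds a FOXO core. Promoter windows of 300 bases were taken from RefSeq (GRCm38.p6) and 8 of the 9 genes had 1 or more, 13 windows in all. The Insr entry was not found. The 250 bases before the start site are printed 5′ to 3′ on the gene's strand. Capitals mark the E-box CACGTG, the insulin response element core TGTTTTG (reverse complement CAAAACA) and the FOXO core TGTTTAC (reverse complement GTAAACA). The windows lie at chr8:11008930-11009179 on the minus strand for Irs2, chr1:82291440-82291689 on the minus strand for Irs1, and chr12:112674885-112675134 on the minus strand for one of the Akt1 starts.
Irs2: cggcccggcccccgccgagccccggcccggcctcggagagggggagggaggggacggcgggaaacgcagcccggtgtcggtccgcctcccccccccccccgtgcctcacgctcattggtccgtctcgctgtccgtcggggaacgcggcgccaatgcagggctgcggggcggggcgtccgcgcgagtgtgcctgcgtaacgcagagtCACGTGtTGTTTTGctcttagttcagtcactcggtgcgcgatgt
Irs1: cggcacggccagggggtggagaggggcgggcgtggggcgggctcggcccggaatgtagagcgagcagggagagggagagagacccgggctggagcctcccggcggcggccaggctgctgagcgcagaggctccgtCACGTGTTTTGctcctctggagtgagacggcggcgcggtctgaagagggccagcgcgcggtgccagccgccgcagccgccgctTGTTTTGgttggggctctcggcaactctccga
Akt1: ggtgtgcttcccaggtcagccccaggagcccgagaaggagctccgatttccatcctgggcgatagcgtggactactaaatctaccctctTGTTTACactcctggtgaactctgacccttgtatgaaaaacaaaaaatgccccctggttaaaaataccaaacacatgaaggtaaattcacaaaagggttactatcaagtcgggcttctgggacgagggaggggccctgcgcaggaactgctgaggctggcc
In the Irs2 window the E-box began at -44 and TGTTTTG at -37, with 1 base between them. In the Irs1 window the E-box began at -115 and TGTTTTG at -111, so that they shared 2 bases, and a further TGTTTTG began at -32. Among all 32851 windows of the same length, 7.15% held the E-box, 6.28% held TGTTTTG or its reverse complement, and 0.408% held both. Of the 32851 windows, 18 (0.0548%) held them 10 bases apart or closer, a distance chosen after the Irs1 and Irs2 sequences had been seen. The FOXO core was found in 1 of the 13 windows, the printed Akt1 window, at -161, and not in the other Akt1 window. It was in 3.65% of all windows. Other motifs were searched as well. The GC box was in 8 of the 13 windows (35.7% of all windows) and the cAMP response half-site in 5 (20.8%). The full cAMP response element (1.79%) and the D-box (0.938%) were in 0. These matches are letters in a sequence and no binding was measured here.

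Per kilobase of exon, the AKT genes and the PI3K subunit gene were the most abundant. Akt2 stood at 52.4 CPM per kb on average over the 32 libraries, Akt1 at 22.9 and Pik3r1 at 21.2. Insr (9.41), Foxo1 (7.47), Irs2 (6.89) and Irs1 (6.45) were close together, and Foxo3 (2.76) and Igf1r (1.15) were lowest. Of the 9 genes, 6 differed between time points in the edgeR quasi-likelihood test (adjusted p under 0.05), where 39.8% of all tested genes did. A 24 h cosine component was found for 3 of 9 (Akt1, Akt2 and Foxo1), against 36.1% of all tested genes. The same 3 genes were oscillating by JTK at P under 0.05, against 36.4% of all tested genes. The shares for the cosine and JTK are close to those of all genes. The highest and lowest time-point means of the 9 genes were from 0.24 (Insr) to 3.09 (Irs2) apart on the log2 scale, beside a median of 0.49 over all tested genes.

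**Figure D1:**
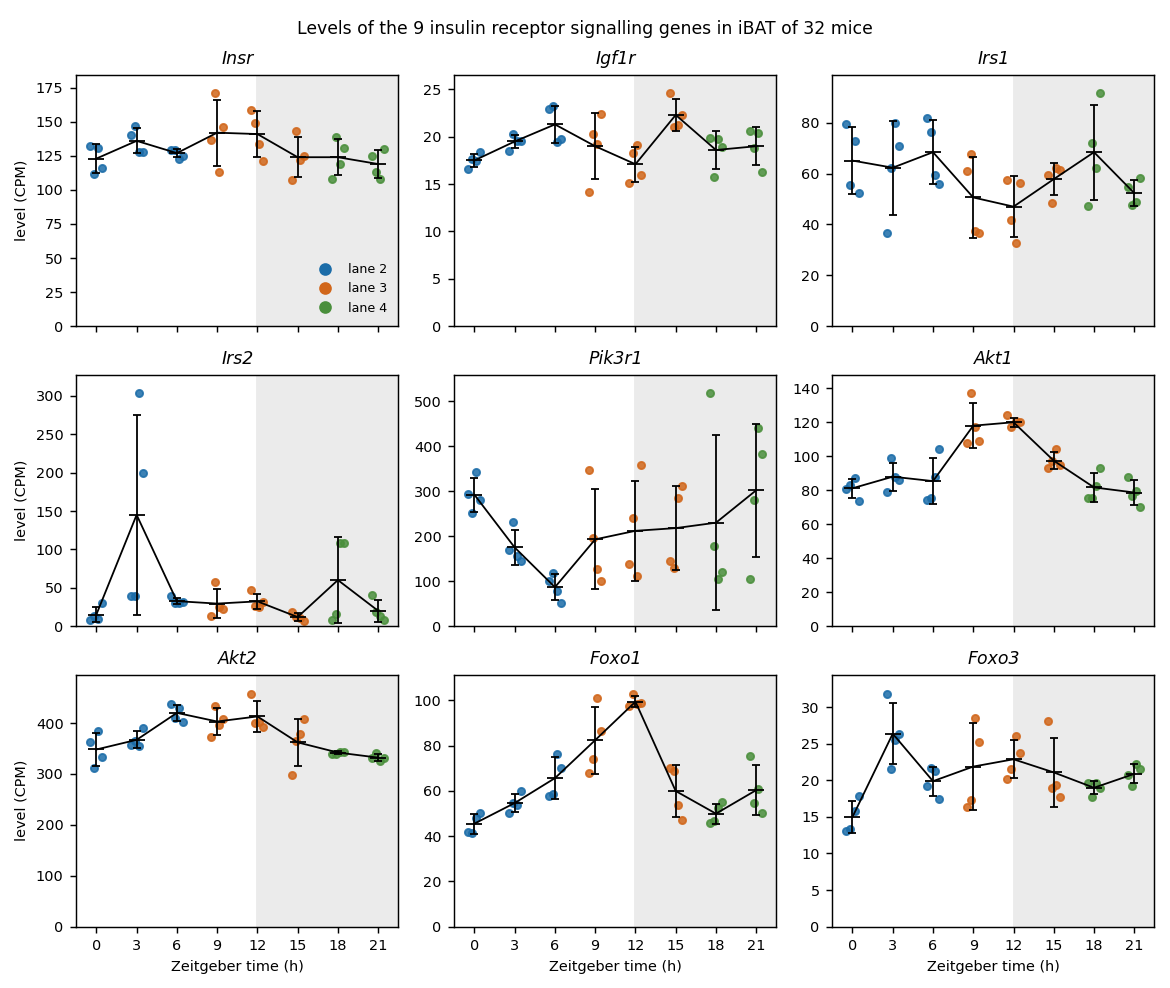
Levels (CPM) of the 9 genes by Zeitgeber time in 32 mice; points are mice coloured by sequencing lane, the black line and bars are the mean ± SD of 4 mice, and the dark phase is shaded. Foxo1 climbed from a mean of 45.5 CPM at ZT0 to 99.4 CPM at ZT12, while the mice of one time point lay far apart for Irs2 and Pik3r1.

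The receptor genes had small ranges over the day, with time-point means 0.24 (Insr) and 0.38 (Igf1r) apart on the log2 scale. The insulin receptor gene Insr (ENSMUSG00000005534, chr8:3122061-3279617, minus strand, GRCm38) lay between 107 and 171 CPM in all 32 mice. Its highest mean was 142 ± 24.1 CPM at ZT9 and its lowest 119 ± 10.1 CPM at ZT21 (SD, n = 4 each), and the mice of these time points overlapped. No comparison of time points passed the threshold for Insr (time points together, edgeR adjusted p = 0.230; cosine, adjusted p = 0.0722). With scaling by library size alone the cosine passed (amplitude 0.11 on the log2 scale, adjusted p = 0.0236). In all mice Insr exceeded Igf1r per kilobase, by 5.29 to 12.8 times.

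Igf1r (ENSMUSG00000005533, chr7:67952827-68233668, plus strand) was highest at ZT15, with 24.6, 21.0, 21.2 and 22.3 CPM in the 4 mice. At ZT12 it stood at 15.1, 18.3, 19.1 and 16.0 CPM, so the mice of ZT12 and ZT15 did not overlap. The increase was 1.30-fold (log2 0.38 ± 0.11 SE, edgeR adjusted p = 0.0471), but 7 of 8 fits that each left out 1 of these mice gave an adjusted p over 0.05 (range 0.0481 to 0.156). Igf1r also differed between the time points together (adjusted p = 0.0476), which held in 14 of 32 fits without 1 mouse and was lost with library size alone (0.0731) and with no filter (0.0783). The summed muscle markers were 759 to 7556 CPM at ZT15 and 19.2 to 7324 CPM at ZT12. Among mice of the same time point, the deviations of Igf1r and of the muscle sum had r = 0.350 over 32 mice (permutation p = 0.0869, adjusted 0.222 over 27 relations) and r = 0.622 without the mice farthest from the median of Igf1r (adjusted 0.00891). The part of muscle RNA in the ZT15 level was not tested.

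The adaptor genes differed from each other. Irs1 (ENSMUSG00000055980, chr1:82233101-82291416, minus strand) ranged from 32.7 to 91.6 CPM, with means between 47.0 ± 12.0 CPM at ZT12 and 68.4 ± 12.7 CPM at ZT6 (SD, n = 4). No test across time passed for Irs1 (time points together, edgeR adjusted p = 0.245). The opposite-strand gene Gm9747 overlaps 30.9% of its exonic bases but had at most 14 counts in any library.

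Irs2 (ENSMUSG00000038894, chr8:10984681-11008458, minus strand) had the widest range of the 9 genes. Its level was 39.1, 39.0, 303 and 200 CPM in the mice of ZT3. It was 8.28, 13.3, 9.35 and 30.5 CPM at ZT0, and 18.8, 12.5, 10.3 and 6.98 CPM at ZT15. Every mouse of ZT3 was above every mouse of ZT0 and of ZT15, and the mice of ZT3 fell into a low and a high pair. Between ZT0 and ZT3 Irs2 rose 9.43-fold (log2 3.24 ± 0.72 SE, edgeR adjusted p = 0.00428), within lane 2. From ZT3 to ZT15, on different lanes, it was 11.9-fold lower at ZT15 (log2 -3.58 ± 0.74 SE, adjusted p = 0.00153). Both differences stayed past the threshold in all 8 fits without 1 of the mice, but their size rested in part on replicate 3 of ZT3, without which they were 6.02-fold (log2 2.59) and 7.62-fold (log2 -2.93). In iBAT as a bulk tissue, fewer cells of a type and less RNA per cell cannot be told apart for this or any gene below.

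A low and a high pair of Irs2 levels also appeared at ZT18, with 8.65 and 16.0 CPM in replicates 1 and 2 and 108 CPM in both replicates 3 and 4. The highest mouse had 12.5 times the lowest at ZT18 and 7.77 times at ZT3, but 1.30 times at ZT6. The SD between mice of the same time point was 1.05 on the log2 scale, and only 1.97% of all tested genes had an SD at least as large, beside a median of 0.20 over all tested genes. No cosine was found for Irs2 (edgeR adjusted p = 0.141), although it differed between the time points together (adjusted p = 0.00105). The ratio of Irs1 to Irs2 per kilobase accordingly ran from 0.182 to 6.65, with a mean of 0.543 ± 0.424 at ZT3 and 4.02 ± 2.46 at ZT0 (SD, n = 4).

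**Figure D2:**
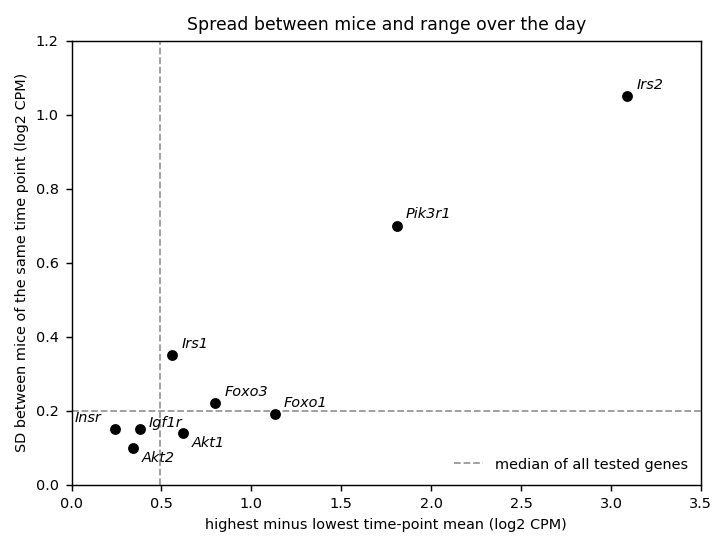
SD between mice of the same time point (y, log2 CPM) against the distance of the highest from the lowest time-point mean (x, log2 CPM) for the 9 genes; dashed lines are the medians of all 15505 tested genes. Irs2 (SD 1.05) and Pik3r1 (SD 0.70) stand apart from the other 7 genes, whose SD was 0.10 to 0.35.

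Pik3r1 (ENSMUSG00000041417, chr13:101680563-101768217, minus strand), the gene of the p85 alpha regulatory subunit, also varied widely between mice. At ZT0 its level was 294, 252, 342 and 281 CPM, at ZT3 169, 231, 156 and 146 CPM, and at ZT6 101, 118, 77.6 and 51.0 CPM. The mice of these 3 time points, all on lane 2, did not overlap, and the means descended. The single steps did not pass (ZT3 against ZT0, log2 -0.74 ± 0.47 SE, adjusted p = 0.289; ZT6 against ZT3, log2 -1.01 ± 0.47 SE, adjusted p = 0.320). Within lane 2 the difference was past the threshold (edgeR on these 12 libraries, adjusted p = 0.00246) in all 12 fits without 1 mouse. The white fat marker sum descended over the same time points, from 108 ± 42.4 CPM (58.2 to 144) at ZT0. It was between 34.7 and 66.9 CPM at ZT3 and 27.0 ± 6.08 CPM (18.7 to 33.1) at ZT6. Over the whole day the courses differed. The sum was highest at ZT15 (203 ± 57.8 CPM), while Pik3r1 was highest at ZT21 (302 ± 148 CPM), where the sum was 74.3 ± 34.1 CPM. The part of the white fat markers in the Pik3r1 level was not tested. From ZT9 on the mice spread out, and at ZT18 they were at 517, 178, 106 and 120 CPM. Pik3r1 was 2.65-fold higher at ZT18 than at ZT6 (log2 1.40 ± 0.48 SE, adjusted p = 0.0415), but the mice overlapped and without replicate 1 of ZT18 the log2 difference was 0.63 and the adjusted p 0.380, and with only the 8 libraries of these time points it was 0.0877. Its SD between mice was 0.70 on the log2 scale, a value reached by 4.23% of all tested genes. The test of the 8 time points together did not pass (adjusted p = 0.0846), nor did the cosine (adjusted p = 0.0699, passing in 5 of 32 fits without 1 mouse). With lane in the model the cosine passed (adjusted p = 0.0359), a call lost in 10 of 32 fits without 1 mouse (up to 0.0908, without replicate 4 of ZT6).

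The AKT genes followed a daily course of small size, with little spread between mice. Akt1 (ENSMUSG00000001729, chr12:112653821-112674884, minus strand) was at 124, 117, 121 and 120 CPM at ZT12 and at 80.8, 83.1, 87.3 and 73.7 CPM at ZT0. Every mouse of ZT12 was higher than every mouse of ZT0, by 1.48-fold on average (log2 0.57 ± 0.10 SE, edgeR adjusted p = 1.87e-04). Akt1 was likewise lower at ZT21 than at ZT9 (log2 -0.58 ± 0.10 SE, adjusted p = 2.79e-04), with no overlap. The cosine fit gave an amplitude of 0.29 ± 0.04 (SE, log2) with the peak at ZT10.8 ± 0.55 h (adjusted p = 7.76e-06). With lane in the model the cosine of Akt1 did not pass (adjusted p = 0.162), and no lane on its own showed a difference past the threshold.

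Akt2 (ENSMUSG00000004056, chr7:27591552-27640826, plus strand), the isoform tied to insulin-stimulated glucose uptake, was the most abundant of the 9 genes. Its level was 437, 410, 430 and 403 CPM at ZT6 and 340, 339, 344 and 343 CPM at ZT18. The mice did not overlap, and the level at ZT18 was 1.23-fold lower (log2 -0.30 ± 0.08 SE, edgeR adjusted p = 0.00746). The cosine had an amplitude of 0.17 ± 0.02 (SE, log2) with the peak at ZT8.65 ± 0.57 h (adjusted p = 5.60e-05), and it passed with lane in the model as well (adjusted p = 0.00669). Per kilobase Akt2 exceeded Akt1 in all 32 mice, by 1.82 to 3.38 times. The ratio was lowest at ZT9 and ZT12, at 1.97 ± 0.135 and 1.97 ± 0.112, and highest at ZT6, at 2.89 ± 0.493 (SD, n = 4).

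Foxo1 (ENSMUSG00000044167, chr3:52268336-52353221, plus strand) had the largest cosine amplitude among the 3 genes past the cosine test without lane. With lane in the model, Pik3r1 passed with a larger amplitude (1.12 against 0.40 on the log2 scale). Foxo1 stood at 42.0, 41.5, 48.0 and 50.4 CPM at ZT0. It was 50.1, 54.6, 53.7 and 59.8 CPM at ZT3, 57.5, 58.4, 76.2 and 70.2 CPM at ZT6, and 67.9, 74.1, 101 and 86.3 CPM at ZT9. At ZT12 the mice were at 97.5, 103, 98.4 and 98.7 CPM. Means thus increased at each step from lights on to lights off, although the mice of neighbouring steps overlapped. At ZT15 the level was back at 70.2, 68.7, 53.8 and 47.0 CPM, below every mouse of ZT12.

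The level of Foxo1 at ZT12 was 2.19-fold that at ZT0 (log2 1.13 ± 0.13 SE, edgeR adjusted p = 1.33e-06). The drop from ZT12 to ZT15, within lane 3, was 1.66-fold (log2 -0.73 ± 0.13 SE, adjusted p = 0.00244). Both were past the threshold in all 8 fits without 1 of the mice. Foxo1 was the only one of the 9 genes that differed between time points on both lane 2 (adjusted p = 0.0197) and lane 3 (adjusted p = 0.0462), but without 1 mouse the former was lost in 2 of 12 fits (up to 0.0565, without replicate 2 of ZT0) and the latter in 9 of 12 (up to 0.164, without replicate 3 of ZT15). The cosine peaked at ZT10.5 ± 0.61 h with an amplitude of 0.41 ± 0.07 (SE, log2; adjusted p = 2.76e-05, and 0.00879 with lane in the model). The antisense gene Gm20402 overlaps 7.78% of its exonic bases and had at most 2 counts in any library.

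Foxo3 (ENSMUSG00000048756, chr10:42181841-42276755, minus strand) had a different course. It was at 13.1, 13.4, 15.8 and 17.9 CPM at ZT0 and at 31.9, 21.6, 25.6 and 26.4 CPM at ZT3, with no overlap. This increase of 1.75-fold (log2 0.81 ± 0.15 SE, edgeR adjusted p = 0.00133) held in all 8 fits without 1 of the mice. From ZT6 on, the means stayed between 19.0 ± 0.857 and 22.9 ± 2.59 CPM (SD, n = 4), and no cosine was found (adjusted p = 0.315). The ratio of Foxo1 to Foxo3 per kilobase was lowest at ZT3, 1.85 ± 0.351, and highest at ZT12, 3.83 ± 0.445 (SD, n = 4).

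**Figure D3:**
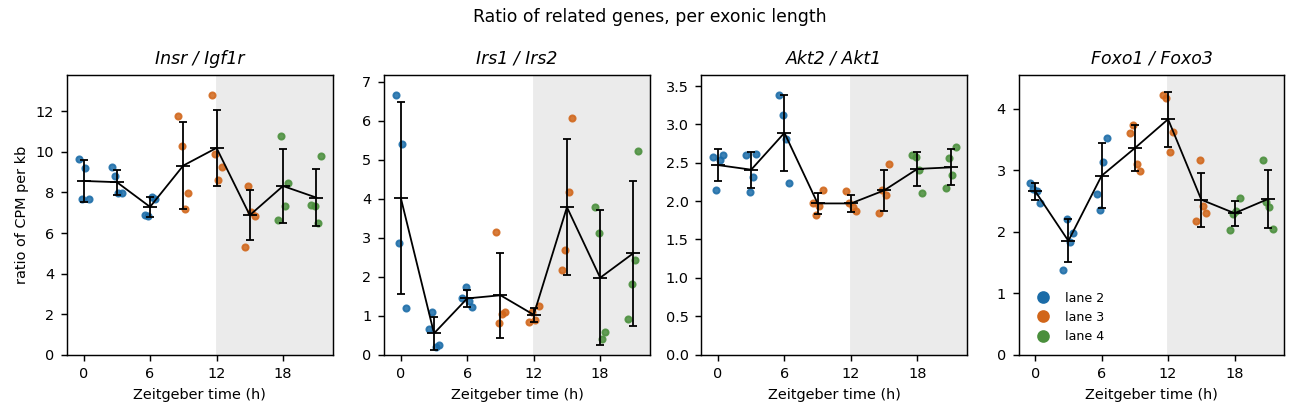
Ratios of the levels per exonic kilobase of the receptor, adaptor, AKT and FOXO pairs by Zeitgeber time; points are mice coloured by lane, the black line and bars are the mean ± SD of 4 mice, and the dark phase is shaded. Akt2 exceeded Akt1 in every mouse (1.82 to 3.38), whereas the ratio of Irs1 to Irs2 ran from 0.182 to 6.65.

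Times of day 12 h apart were compared next. At ZT12, 4 of the 9 genes (Akt1, Akt2, Foxo1 and Foxo3) were higher than at ZT0, all with no overlap between the mice. Of all tested genes 15.9% differed in either direction, 1196 of 15505 being higher at ZT12. The share of all genes without overlap is not given here. Foxo3 was 1.52-fold higher (log2 0.61 ± 0.15 SE, edgeR adjusted p = 0.00804) and Akt2 1.19-fold (log2 0.25 ± 0.08 SE, adjusted p = 0.0248). The Akt2 difference was lost in 3 of 8 fits without 1 mouse (up to an adjusted p of 0.0999, without replicate 2 of ZT0) and with only the 8 libraries of these time points (0.129), and the other 3 genes held in all 8. At ZT15 against ZT3 only Irs2 differed, 1 of 9, beside 14.2% of all tested genes.

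At ZT18 against ZT6, 3 of the 9 differed, Pik3r1 being higher and Akt2 and Foxo1 lower at ZT18, beside 16.9% of all tested genes. Foxo1 was 1.31-fold lower at ZT18 (log2 -0.39 ± 0.13 SE, edgeR adjusted p = 0.0387), a call lost in 4 of 8 fits without 1 mouse and with scaling by library size alone (0.0910). At ZT21 against ZT9, 3 of the 9 (Akt1, Akt2 and Foxo1) were lower at ZT21. Beside them 9.62% of all tested genes differed in either direction, 793 of 15505 being lower. The Akt2 difference was lost in 2 of 8 fits without 1 mouse (up to 0.0646, without replicate 2 of ZT9) and with only the 8 libraries of these time points (0.0605). For Foxo1 the mice overlapped (log2 -0.45 ± 0.13 SE, adjusted p = 0.0273), and the call was lost in 5 of 8 fits without 1 mouse and with scaling by library size alone (0.0548). When only the 8 libraries of ZT9 and ZT21 were fitted, 1 of the 9 passed. All of these pairs of time points were sequenced on different lanes.

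**Figure D4:**
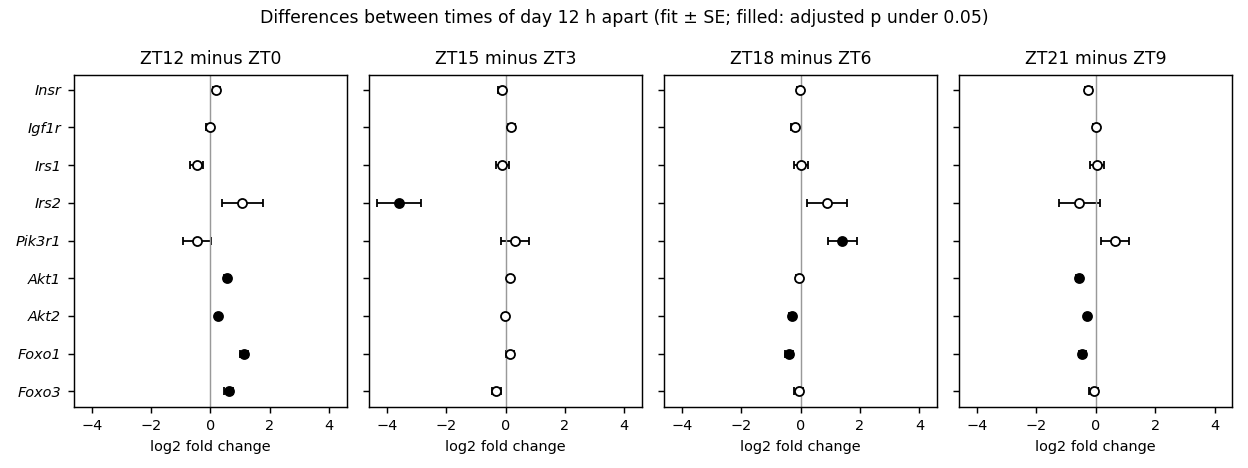
Log2 fold changes of the 9 genes between time points 12 h apart from the edgeR fit to 32 libraries; bars are ± 1 SE, filled points had an adjusted p under 0.05, and values above 0 are higher at the later time point. Akt1, Akt2, Foxo1 and Foxo3 lie above 0 for ZT12 minus ZT0, and Irs2 lies at -3.58 for ZT15 minus ZT3.

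Steps of 3 h within a lane are free of the lane difference. Between ZT0 and ZT3, 2 of the 9 genes (Irs2 and Foxo3) rose. Beside them 13.8% of all tested genes differed in either direction, 1110 of 15505 being higher at ZT3. Between ZT12 and ZT15, 2 of the 9 differed (Igf1r higher, Foxo1 lower at ZT15), beside 3.04% of all tested genes. None of the 9 passed in edgeR or DESeq2 between ZT3 and ZT6 (2.08% of all tested genes in edgeR), where 4 of the 9 and 2226 of all 15505 genes had an unadjusted p under 0.05. None passed between ZT18 and ZT21 (2.06%), where 2 of the 9 and 2330 of all genes had an unadjusted p under 0.05. Between ZT9 and ZT12 no gene of the whole table passed (0%), and 1 of the 9 (Foxo1) and 1047 of all genes had an unadjusted p under 0.05. In edgeR fits of single lanes, 4 of the 9 (Irs2, Pik3r1, Foxo1 and Foxo3) differed within lane 2, beside 12.6% of all tested genes. Within lane 3, 1 of the 9 (Foxo1) differed, beside 1.78%. Within lane 4, 0 of the 9 did, beside 4.02%, and 1 of the 9 and 3080 of all genes had an unadjusted p under 0.05. With lane as an additive factor the cosine was found for 3 of the 9 (Pik3r1, Akt2 and Foxo1), beside 17.2% of all tested genes.

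The differences between mice of the same time point were then compared between genes. Each mouse was expressed as its deviation from the mean of its time point (log2 CPM), and mice were permuted within time points. Of the 36 pairs of the 9 genes, 2 passed after adjustment over the 36. Mice with more Pik3r1 had less Foxo1 (Pearson r = -0.647, permutation p = 7.00e-04, adjusted 0.020; Spearman rho = -0.641, p = 9.10e-04; n = 32 mice). They also had less Irs2 (r = -0.588, permutation p = 0.00111, adjusted 0.020; rho = -0.551, p = 0.00242). Without the mice farthest from the median of Pik3r1, r with Foxo1 was -0.661. Without those farthest from the median of Irs2, replicates 3 and 4 of ZT3, r of Irs2 with Pik3r1 was -0.627, and both adjusted p were 0.0661. Within lanes 2, 3 and 4, r was -0.432, -0.685 and -0.752 for Pik3r1 with Foxo1, and -0.338, -0.382 and -0.868 for Irs2 with Pik3r1, and none of these passed after adjustment. On the CPM scale neither pair passed (r = -0.551 and -0.322, adjusted p = 0.0704 for both). Irs2 and Foxo1 had r = 0.470 (permutation p = 0.00429, adjusted 0.0515).

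Each of the 9 genes was also set against Pck1, the gluconeogenic and glyceroneogenic enzyme gene that insulin represses, against Acly, the ATP citrate lyase gene of fat synthesis that insulin induces, and against the muscle sum. Of these 27 relations 2 passed. Irs2 was higher in mice with more Pck1 (r = 0.753, permutation p = 1.30e-04, adjusted 0.00351; rho = 0.719, p = 3.90e-04; n = 32 mice). It remained so without the mice farthest from the median of Irs2, replicates 3 and 4 of ZT3 (r = 0.805, adjusted 0.00891), while on the CPM scale r was 0.470 (adjusted 0.0294). The sign was the same in 7 of 8 time points, and within lanes 2, 3 and 4 r was 0.610, 0.586 and 0.951 (exact permutation p = 0.0162, 0.118 and 0.00174, the last being the smallest the 8 mice of lane 4 can give; adjusted 0.207, 0.475 and 0.0469). Foxo1 was lower in mice with more Acly (r = -0.615, permutation p = 0.00252, adjusted 0.0340; rho = -0.651, p = 9.30e-04), in the same sign at all 8 time points. Without the mice farthest from the median of Foxo1, r was -0.574 and the adjusted p 0.0621. Within lanes 2, 3 and 4 r was -0.528, -0.706 and -0.718 (exact permutation p = 0.201, 0.0514 and 0.0382; adjusted 0.494, 0.349 and 0.129).

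Irs2 fell into a low and a high pair of mice at both ZT18 and ZT3, and the values of the other genes in these mice are given as a description. Replicates 1 and 2, with Irs2 at 8.65 and 16.0 CPM, had Pck1 at 879 and 1248 CPM, Pik3r1 at 517 and 178 CPM and Acly at 7308 and 7676 CPM. Replicates 3 and 4, with Irs2 at 108 CPM in both, had Pck1 at 2530 and 3071 CPM, Pik3r1 at 106 and 120 CPM and Acly at 4567 and 3794 CPM. The high pair thus had more Pck1 and less Pik3r1 and Acly than the low pair at ZT18, although over 32 mice Irs2 and Acly had r = -0.252 (permutation p = 0.0975, adjusted 0.222). The muscle sum was 4.08 and 4.14 CPM in replicates 1 and 2 and 2101 and 5358 CPM in replicates 3 and 4. At ZT3 Pck1 was 3713 and 3814 CPM in the high pair and 2547 and 3464 CPM in the low pair. Pik3r1 was 156 and 146 CPM in the high pair and 169 and 231 CPM in the low pair. Acly did not separate these pairs, with 3304 and 3153 CPM in the high and 4196 and 1577 CPM in the low pair. At ZT3, where Irs2 was at 303 and 200 CPM in replicates 3 and 4, the muscle sum was 8.53 and 7.64 CPM in these mice, and 88.9 and 7520 CPM in the mice with low Irs2. Over 32 mice Irs2 and the muscle sum had r = 0.152 (permutation p = 0.518). Within lane 4, which held ZT18, r with the muscle sum was 0.906 for Irs2, 0.881 for Akt1 and 0.766 for Foxo1 (exact permutation p = 0.0503, 0.00521 and 0.0226; adjusted 0.151, 0.0703 and 0.129), and the part of muscle RNA in the relations on this lane was not tested.

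**Figure D5:**
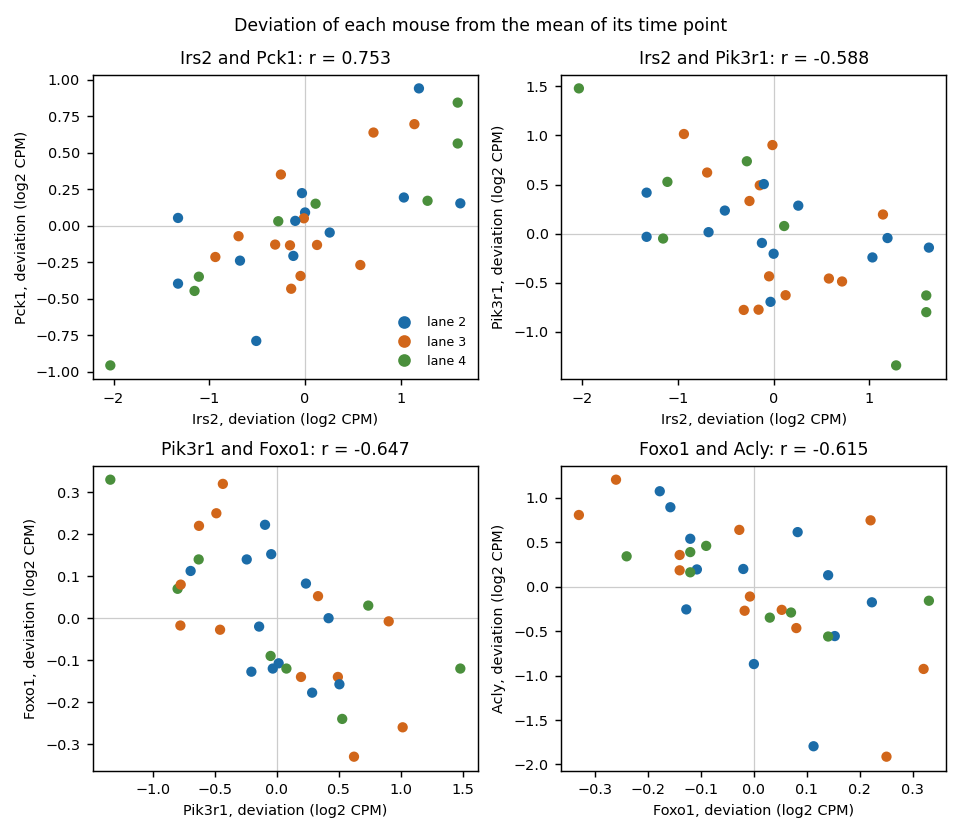
Deviation of each of 32 mice from the mean of its time point (log2 CPM on both axes), coloured by sequencing lane, for the 4 relations that passed after adjustment. Pck1 increases with Irs2 (r = 0.753), Pik3r1 decreases with Irs2 (r = -0.588), Foxo1 decreases with Pik3r1 (r = -0.647) and Acly decreases with Foxo1 (r = -0.615).

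The genes most like Irs2 between mice, as a description over 32 mice and 10299 genes with a mean of at least 5 CPM, were Tle3 (r = 0.804), Etv3 (0.789), Elf2 (0.788), Dlc1 (0.781) and Nectin2 (0.772). The lowest values were for Celf1 (r = -0.756), Ppp1r3c (-0.741) and Lfng (-0.724). Tle3, which encodes a transcriptional co-regulator, had 43.4 to 74.9 CPM at ZT18 and 39.0 to 45.4 CPM at ZT6. Over the 8 time-point means, the genes most like Foxo1 were Mocs1 (r = 0.984), Uhrf1bp1 (0.982), Slc12a2 (0.969), Itpr3 (0.967) and Ddit4 (0.962). Ddit4, whose product inhibits mTORC1, had means from 9.30 ± 2.74 CPM at ZT0 to 40.9 ± 8.70 CPM at ZT12 (SD, n = 4). These points share libraries and, over time, lanes.

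Other genes of the pathway were counted by role, 89 genes in 7 lists, of which 85 were tested. Of these 85, 42 differed between time points, 35 had a cosine component, and 20 had one with lane in the model, beside 39.8%, 36.1% and 17.2% of all tested genes. Upstream of the receptors, 3 of 7 tested ligand and binding protein genes differed between time points. Igfbp4, whose product binds IGFs, was highest at ZT12 (47.1 ± 6.15 CPM) and lowest at ZT21 (27.0 ± 4.08 CPM), and Igfbp3 was highest at ZT21 (18.6 ± 1.75 CPM) and lowest at ZT9 (11.2 ± 3.47 CPM; SD, n = 4). Of the other receptors and adaptors, 8 of 10 tested genes differed between time points. Irs3, the adaptor gene found in rodent fat, was 38.5 ± 8.95 CPM at ZT0 and 16.0 ± 1.82 CPM at ZT12 (log2 -1.27, edgeR adjusted p = 5.31e-04), opposite in direction to Foxo1 in the same contrast. Sh2b2, which encodes the insulin receptor adaptor APS, was highest at ZT15 (225 ± 77.0 CPM) and lowest at ZT3 (124 ± 16.0 CPM).

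Of the 11 genes of PI3K and the steps to AKT, 5 differed between time points, beside 39.8% of all tested genes. Their median range of means was 0.37 on the log2 scale. Pik3cd, a catalytic subunit gene best known from leukocytes, was highest at ZT9 (8.25 ± 3.44 CPM) and lowest at ZT0 (3.95 ± 1.16 CPM). The summed macrophage markers were likewise highest at ZT9 (93.7 ± 76.8 CPM) and lowest at ZT0 (43.9 ± 10.1 CPM), and their part in the Pik3cd level was not tested. Pik3r3, another regulatory subunit gene, was highest at ZT6 (11.5 ± 1.36 CPM), where Pik3r1 was lowest, and lowest at ZT12 (7.73 ± 0.599 CPM). Of 16 effectors of AKT, 8 differed between time points, beside the same 39.8% of all tested genes. Tbc1d4, whose product AS160 holds back GLUT4 vesicles until AKT phosphorylates it, was highest at ZT3 (121 ± 10.8 CPM) and lowest at ZT12 (70.2 ± 6.21 CPM). Foxo6 was low throughout (0.270 ± 0.164 CPM at ZT21, 3.14 ± 2.40 CPM at ZT9).

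Of 15 inhibitors of the path, 8 differed between time points, beside 39.8% of all tested genes. Trib3, which encodes a pseudokinase that binds AKT, was highest at ZT6 (11.6 ± 1.57 CPM) and lowest at ZT15 (4.13 ± 1.09 CPM), and Socs2 was highest at ZT3 (15.0 ± 7.42 CPM) and lowest at ZT6 (5.57 ± 0.875 CPM). Of 16 tested FOXO target genes, 5 differed, beside the same 39.8%. Pdk4, the kinase gene that restrains glucose oxidation, was 1913 ± 274 CPM at ZT3, where Irs2 and Foxo3 were also highest, and 458 ± 124 CPM at ZT15 (log2 -2.06, edgeR adjusted p = 2.31e-04). Ccng2 went from 61.5 ± 11.2 CPM at ZT0 to 23.5 ± 3.01 CPM at ZT9. Of 10 insulin-induced genes, 5 differed between time points, 6 had a cosine component, and 4 had one with lane in the model. The shares of all tested genes were 39.8%, 36.1% and 17.2%. All 6 without lane peaked in the dark phase, as did 49.1% of all genes with a cosine component. Acly was 6176 ± 1306 CPM at ZT21 and 1824 ± 1235 CPM at ZT9 (SD, n = 4).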

How the data were processed

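Raw read counts per gene were used as deposited by the authors, who per the labels and methods mapped stranded 100 bp paired-end reads to the mouse genome (mm10) with GSNAP and counted Ensembl genes with HTSeq (0.6.1). Whether counting used the strand is not given in the sources used here. Of 50686 identifiers 50376 had a symbol. Positions and exonic lengths come from the GENCODE annotation of GRCm38.

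Genes were filtered with filterByExpr by time point (15505 genes, 99.9% of counts) and TMM-scaled in edgeR 4.0.16 (R 4.3.3). CPM are TMM-scaled, and log2 CPM has a prior count of 2. Tests were edgeR's quasi-likelihood test with Benjamini-Hochberg adjustment over all tested genes at 0.05, for a 24 h cosine (with and without lane), the 8 time points, single lanes and contrasts. JTK was an own implementation with templates of 21 and 24 h, without reuse of the study's values. Scripts were tested on simulated data. Relations used 100000 permutations within time points, or exact enumeration within lanes, two-sided; the muscle sum was logged with 0.1 CPM added. Alternatives were other scalings, no filter, DESeq2 1.42.0, a replicate block and leaving out mice; the fits with lane under other scalings and without single mice were added after the data were seen.

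No library repeated another (48 pairs of one time point, lowest mean chi-square per gene 7.99). Named were all 9 genes, and in each list the 2 genes past the time-point test with the largest range of means, except 1 gene that is not reported here; likeness used genes of at least 5 CPM. The genes, lists and rules were chosen with earlier results of these data known, so no list is independent evidence. The JTK threshold (P under 0.05, not adjusted over genes) follows the methods of the study.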

Additional observations from a re-analysis of the deposited data

Results flagged for a closer look

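Among the 72 groups of 4 mice (9 genes at 8 time points), 2 held a mouse that stood farther from the rest than Dixon's 95% limit of 0.829 of the group's range. By chance about 1 in 20 groups is marked in this way. Akt2 at ZT12 was 458 CPM in replicate 1, with the other mice at 392 to 403 CPM (gap 0.836 of the range). Foxo3 at ZT15 was 28.1 CPM in replicate 1, with the other mice at 17.8 to 19.4 CPM (gap 0.842 of the range). Replicate 1 of ZT15 was also the library with the highest muscle sum, 7556 CPM. For the deviations of Foxo3 and of the muscle sum, r was 0.150 over 32 mice (permutation p = 0.435, adjusted 0.588). Whether muscle RNA had a part in the Foxo3 level of this mouse was not tested. Without replicate 1 of ZT15, Foxo3 differed between ZT15 and ZT3 with an adjusted p of 0.0243 (edgeR), against 0.166 with it. Over the 8 fits without 1 mouse the adjusted p ran from 0.0243 to 0.415.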

How the results depend on the processing

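No difference between time points named in the report, and none of the 4 relations that passed, changed direction under the alternatives run. Among all 63 relations the sign of r differed from that over all mice for 20 on lane 2, 9 on lane 3 and 16 on lane 4. With another scaling, no filter, DESeq2 or the replicate block, the counts of genes past the threshold were within 1.5 times of those reported, with these exceptions. Between ZT21 and ZT9, 1 of the 9 genes passed when only those 8 libraries were fitted, against 3. Between ZT15 and ZT12, 1 passed with library size alone, with only those 8 libraries, and with the replicate block, against 2, the lost gene being Igf1r (adjusted p = 0.0610 in the replicate block); the block also took Igf1r (time points together, 0.0714) and Pik3r1 (ZT18 against ZT6, 0.0678) over the threshold and changed no other call. The replicate numbers share no known source, and the deviations of same-numbered libraries had r from -0.726 to 0.767 over 112 pairs (median -0.119), so they were not treated as pairs. Leaving out 1 mouse at a time gave 3 to 5 genes for the cosine, 2 to 3 for the cosine with lane, 5 to 7 for the time points together and 3 for JTK. It gave 3 to 4 for ZT12 against ZT0, 1 to 2 for ZT15 against ZT3, 1 to 3 for ZT18 against ZT6, 1 to 3 for ZT21 against ZT9, 1 to 2 for ZT15 against ZT12, 3 to 5 within lane 2 and 0 to 1 within lane 3. Of the 36 pairs of genes 2 passed over all mice, 0 on the CPM scale, 0 without the mice farthest from the median, 1 on lane 2, 0 on lane 3 and 0 on lane 4. The pair on lane 2 was Insr with Pik3r1, not one of the reported pairs, with r = 0.582 (adjusted 0.0443) there and -0.136 over all mice. Of the 27 relations with Pck1, Acly and muscle 2 passed over all mice, 0 on lane 2, 1 on lane 3 and 1 on lane 4. That on lane 3 was Foxo3 with Acly (r = -0.899, adjusted 0.0176, against -0.382 over all mice), which was not among those reported, and that on lane 4 was Irs2 with Pck1 (adjusted 0.0469). Scaling by library size alone also took both lower Foxo1 levels, at ZT18 against ZT6 (0.0910) and at ZT21 against ZT9 (0.0548), over the threshold, and with no filter the test of Igf1r over the time points together did not pass (0.0783). The causes of these changes were not tested. The lowest count of any of the 9 genes was 119, and each time point had 4 mice and 1 lane.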

Other observations

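Other genes of the lists that passed between ZT15 and ZT3 are named here after their values had been seen. Of the 16 tested FOXO target genes, 3 were lower at ZT15 and 0 higher (edgeR): Pdk4, Klhl24 (log2 -0.77, adjusted p = 3.41e-05) and Bcl2l11 (log2 -0.63, adjusted p = 0.0207), the last encoding the pro-apoptotic protein BIM. All 3 had their highest mean at ZT3. Because they were picked for a higher level at ZT3 than at ZT15, this is not a separate observation. Of the 10 insulin-induced genes, 2 were higher at ZT15 and 0 lower: Hk2, the hexokinase gene (log2 1.34, adjusted p = 0.00448), and Srebf1, the lipogenic transcription factor gene (log2 0.85, adjusted p = 0.0119). The other insulin-induced genes did not pass and went in both directions, as with Acaca (log2 -0.88) and Pnpla3 (log2 0.61). Of all tested genes 14.2% differed in this contrast in either direction, 1069 of 15505 being higher and 1129 lower at ZT15. Counts in lists this short are not read as a result about FOXO target or insulin-induced genes. Of the inhibitors, Trib3 (log2 -1.33, adjusted p = 9.56e-05) and Socs2 (log2 -1.0, adjusted p = 0.0370) were lower at ZT15, and Trib2 (log2 0.73, adjusted p = 8.68e-04) and Ptpn1 (log2 0.42, adjusted p = 0.00659) were higher.

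Between ZT12 and ZT0, 9 of the 85 tested pathway genes were higher and 7 lower at ZT12, where 15.9% of all tested genes differed. Tbc1d4 was lower at ZT12 (log2 -0.66, adjusted p = 6.12e-04), while the IGF binding protein genes Igfbp4 (log2 0.73, adjusted p = 0.00572) and Igfbp5 (log2 0.59, adjusted p = 0.0284) were higher. These contrasts compare different lanes.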
